A study of Mus musculus with 12 samples.

Results

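The type I interferon-stimulated antiviral genes described here are 40 genes of the mouse: the IFIT and OAS families, the ISG15 system, RNA and DNA sensors, antiviral enzymes, membrane and secreted proteins, and further genes known to be induced by interferon. They were chosen by symbol from what is known of the response, at a time when earlier results of these data were known. The counts and shares given below for these genes are therefore descriptions and not independent tests. Each symbol was matched to its Ensembl identifier in the deposited count tables. All 40 were found among the 35697 identifiers of the table from 2018 and the 55637 of the table from 2022, and all 40 had enough counts to be tested in both.

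The study examined traumatic brain injury (TBI) in adult male wild-type C57BL/6J mice. Controlled cortical impact, in which a piston strikes the exposed cortex, was compared with sham surgery without the impact in libraries of 2018 (3 sham and 3 TBI mice, tissue from around the contusion, 7 days after injury). In libraries of 2022, 3 injured mice that received zileuton (10 mg/kg per day in corn oil, injected intraperitoneally after TBI) were compared with 3 injured mice without it, which are labelled only as TBI and are called the vehicle group here. Zileuton inhibits 5-lipoxygenase, the enzyme that starts the synthesis of leukotrienes. The 2022 columns could not be tied to single labels and are called A, B and C within each group. For zileuton, source names read days 7, 8 and 9, whereas all library names read day 7. The 2022 experiment has no sham library, and no test compared the batches with each other.

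Type I interferons (interferon alpha and beta) bind the receptor made of IFNAR1 and IFNAR2, which activates the kinases JAK1 and TYK2. STAT proteins are then phosphorylated and join IRF9 in a complex that binds the interferon-stimulated response element (ISRE) in the promoters of its target genes. The products of those genes sense viral nucleic acid, degrade RNA, block translation, trap virions and feed back on the pathway. In the brain, microglia, astrocytes, neurons and infiltrating myeloid cells can all mount this response.

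Promoter sequence (250 bases before to 50 bases after the start site, RefSeq, GRCm38.p6) was at hand for 28 of the 40 genes. The core of the ISRE, written as GAAA, 2 bases of any kind, and GAAA again on either strand, was found in 14 of the 28 (50%) and in 3.99% of 27025 genes in the same table (3.44% of 32851 promoters). A longer form of the core, with CT after it, was found in 8 of the 28 (28.6%) and in 0.303% of all genes (0.271% of promoters). The gamma-activated site TTCNNNGAA, known from the response to interferon gamma and able to overlap the ISRE, was found in 7 (25.0%) and in 9.55% of all genes (8.3% of promoters). In 11 of the 14 genes a core lay before the start site. In the windows below, which stand for the main families, the capitals mark every match to the core and the strand is that of the gene, 5′ to 3′.
Isg15, chr4:156200855-156200916, minus strand: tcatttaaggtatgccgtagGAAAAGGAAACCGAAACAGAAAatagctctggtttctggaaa
Ifit1, chr19:34640765-34640833, plus strand: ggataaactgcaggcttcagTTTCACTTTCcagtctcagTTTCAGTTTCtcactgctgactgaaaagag
Ifit3, chr19:34583353-34583436, plus strand: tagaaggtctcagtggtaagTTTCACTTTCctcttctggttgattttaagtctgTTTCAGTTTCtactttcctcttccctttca
Oas1a, chr5:120907526-120907565, minus strand: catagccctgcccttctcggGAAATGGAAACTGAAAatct
Oas1g, chr5:120887614-120887651, minus strand: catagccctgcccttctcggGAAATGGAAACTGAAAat
Oas3, chr5:120777705-120777754, minus strand: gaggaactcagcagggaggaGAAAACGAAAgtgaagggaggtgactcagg
Bst2, chr8:71537567-71537622, minus strand: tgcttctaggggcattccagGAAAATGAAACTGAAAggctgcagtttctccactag
Rsad2, chr12:26456543-26456592, minus strand: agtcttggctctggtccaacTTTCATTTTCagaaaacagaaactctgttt

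Isg15 carried 3 overlapping cores in this window, and Oas1a, Oas1g and Bst2 carried 2 each. The window of Ifit3b was the same as that of Ifit3, letter for letter, and their promoters were 94.5% identical over 274 aligned bases, compared with 86.1% over 303 for Oas1a and Oas1g. The 14 genes with a core had a median log2 fold change after TBI of 3.95 (1.77 to 7.43), and the 14 whose promoter held none had a median of 2.48 (0.38 to 5.17). The 12 genes with no promoter sequence at hand had a median of 3.56. These ranges overlapped widely, and a match in a promoter is a description of its letters and not of binding.

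**Figure D1:**
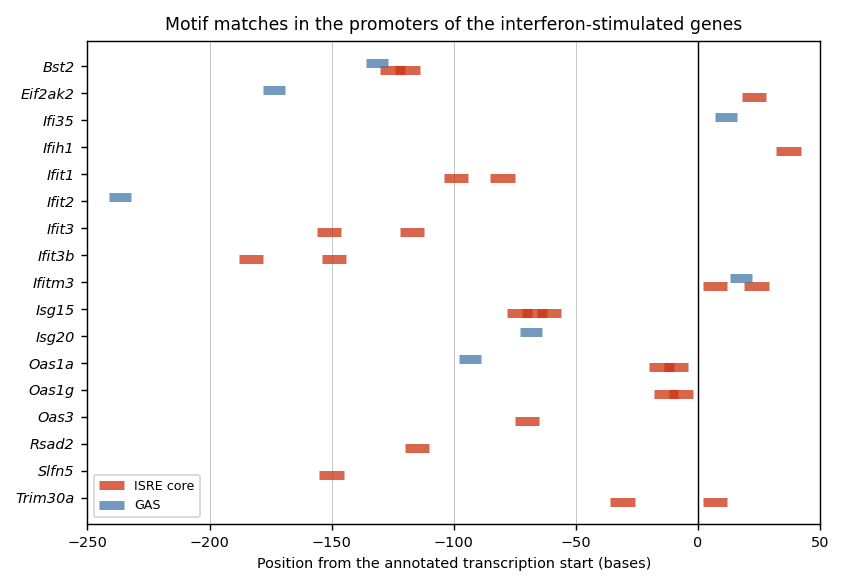
Positions of the ISRE core and the gamma-activated site (GAS) in the promoters that hold either, in bases from the annotated start site at 0. Most ISRE cores lie within 200 bases before the start, and 3 genes (Eif2ak2, Ifih1 and Ifitm3) hold one only after it.

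Many of these genes are neighbours in the genome (GENCODE M21, GRCm38, whereas the submitters' processing notes name GRCm39). The 6 OAS genes lie on chromosome 5, and the 4 IFIT genes on chromosome 19 with 90177 bases between the outermost starts. Rsad2 and Cmpk2 face away from each other on chromosome 12 with starts 12752 bases apart, and Parp9 and Dtx3l overlap head to head on chromosome 16 with starts 681 bases apart. By this annotation 13 of the 40 overlap a gene on the other strand, 3 overlap one on the same strand, and 26 overlap none. Whether reads were counted by strand is not given in the sources used here, so the reads of overlapping genes cannot be told apart.

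The libraries held 42929862 to 48684674 counts in 2018 and 27845562 to 35453257 estimated counts in 2022. Levels are given as counts per 1000000 counted reads (CPM, scaled by TMM), as the value in each library or as mean ± SD with n = 3, and fold changes are on the log2 scale with their standard error (SE). Genes were tested with edgeR's quasi-likelihood test, and p-values were adjusted by the Benjamini-Hochberg method over 19536 genes (2018) or 17363 genes (2022). The SE was derived from that test, as the size of the log2 fold change divided by the square root of the F statistic. Each library is taken as 1 mouse. Tissue was measured in bulk, so that fewer cells of a type and less RNA per cell cannot be told apart. Gfap, which encodes the filament of reactive astrocytes and serves as a check of the labels, went from 188 ± 41.6 to 2480 ± 211 CPM.

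All 40 interferon-stimulated genes had a higher fitted level in TBI than in sham mice 7 days after injury, and 39 of them passed an adjusted p of 0.05. Among all tested genes, 16.8% rose by this test. None of the 40 was called lower by edgeR, also at an unadjusted p of 0.05 and by DESeq2, against 11.2% of all genes with an adjusted p under 0.05. The median log2 fold change was 3.45, compared with 0.02 over all tested genes. Every TBI library lay above every sham library for 39 of the 40, and for 24.6% of all genes. A rise of at least 4-fold with an adjusted p under 0.05 was found for 34 of the 40 and for 3.83% of all genes. The fitted fold was at least 8 for 26 of the 40 and at least 16 for 16, compared with 1.93% and 1.01% of all genes.

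**Figure D2:**
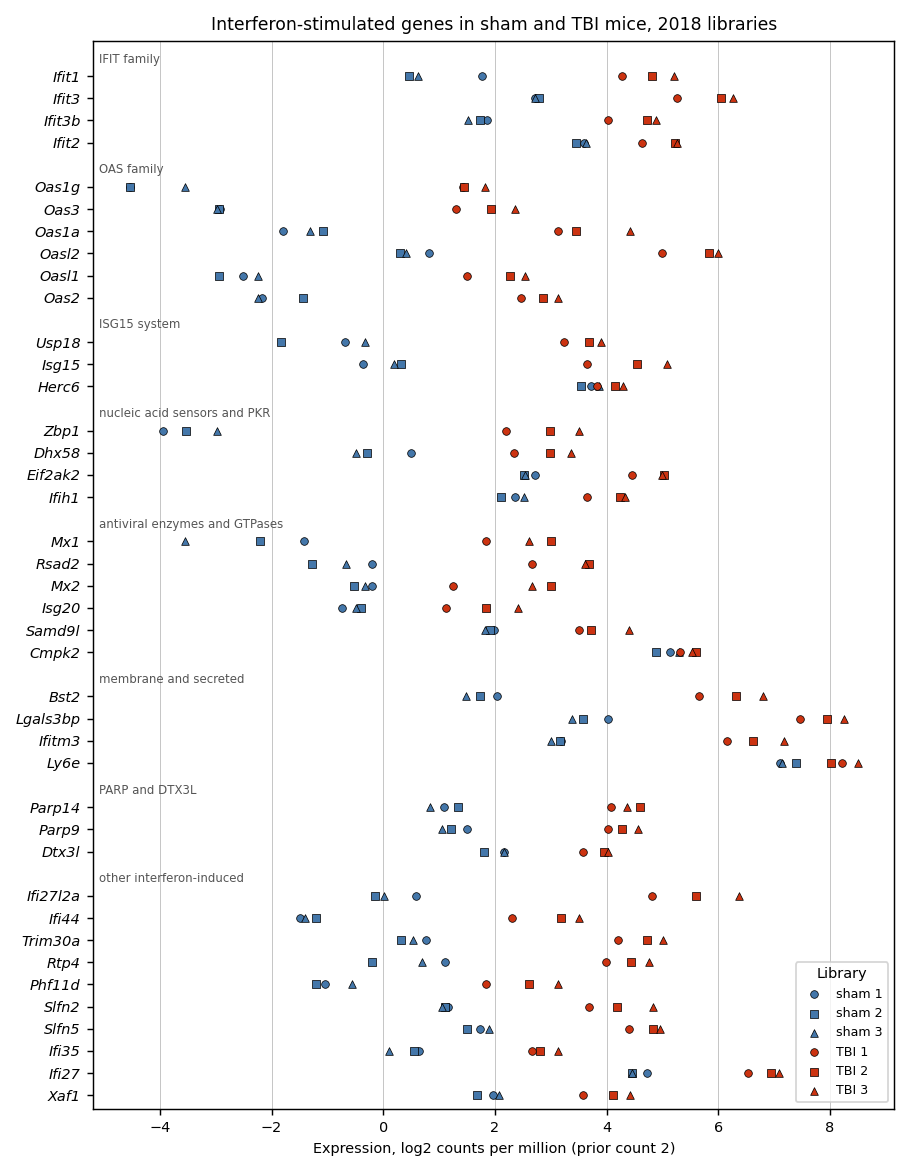
Level of each gene in every 2018 library (log2 CPM with a prior count of 2), grouped by role, with circles, squares and triangles for mice 1, 2 and 3. The sham and TBI symbols are apart in 39 of 40 rows, and the circle of TBI 1 is the lowest TBI symbol in 39.

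Transcripts of many of these genes were scarce in sham brain. In sham mice 14 of the 40 averaged under 1 CPM and 6 averaged at least 10 CPM, whereas in TBI mice none averaged under 1 CPM and 28 averaged at least 10 CPM. Per length, as the deposited FPKM values give it, the most abundant in sham mice was Ly6e at 38.7 ± 4.47 FPKM, followed by Ifi27 (15.7 ± 1.61), Ifitm3 (12.5 ± 0.839) and Cmpk2 (8.13 ± 1.17). In TBI mice the order was headed by Ifitm3 at 157 ± 54.6 FPKM, ahead of Ifi27l2a (116 ± 59.2), Bst2 (91.0 ± 33.9), Lgals3bp (86.5 ± 22.4), Ly6e (82.3 ± 12.6) and Ifi27 (80.9 ± 15.4). Neighbours among these 6 lay within 1 SD of each other, and the next genes, Ifit3 at 35.2 ± 11.4 FPKM and Isg15 at 33.6 ± 15.3 FPKM, were lower.

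The 6 OAS genes, whose classical members make the 2′-5′ oligoadenylates that activate RNase L, rose the most as a family, with log2 fold changes of 4.98 to 7.43. Oas1g had 0, 0 and 2 counts in the sham libraries and 130, 131 and 151 in the TBI libraries. The ratio of the pooled counts was 203, with a 95% counting interval of 55.8 to 1680. Such an interval takes reads as the unit and leaves out the spread between mice. Of the counts from 1 to 20 in these libraries, 62.3 to 64.4% were even numbers, and with counts divided by 2, as if both mates of a pair had been counted, the interval was 36 to 8060. The fitted log2 fold change of 7.43 (SE 0.607, adjusted p = 5.38e-05) depends on how 0 counts are treated. Oas3 stood at 0.0888, 0.0865 and 0.0842 CPM in sham mice and at 2.42, 3.78 and 5.06 CPM in TBI mice. Oas2 stood at 0.178, 0.324 and 0.168 CPM in sham mice and at 5.51, 7.18 and 8.75 CPM in TBI mice. For both, the sham values were close to the floor of detection and no TBI value came near them (log2 fold changes 5.40, SE 0.404, and 4.98, SE 0.324). Oasl2, a ubiquitin-like OAS protein and the family's most abundant member here, went from 1.73, 1.19 and 1.28 to 31.8, 56.7 and 63.4 CPM (log2 fold change 5.17, SE 0.293, adjusted p = 1.15e-05). Oas1a and Oasl1 rose by 5.29 and 5.06 on the log2 scale.

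The IFIT proteins bind viral RNA and hinder its translation, and all 4 rose. Ifit3, the most abundant, was at 6.53, 6.83 and 6.57 CPM in sham mice and 38.5, 65.9 and 76.6 CPM in TBI mice (log2 fold change 3.18, SE 0.233, adjusted p = 3.16e-05). Ifit1, which recognizes RNA that lacks a methylated cap, showed the largest change of the family, from 3.35, 1.34 and 1.49 to 19.4, 28.2 and 36.9 CPM (log2 fold change 3.77, SE 0.369, adjusted p = 0.00014). Ifit3b rose by 2.89 on the log2 scale. Ifit2 rose the least, from 11.8 ± 0.776 to 33.4 ± 7.58 CPM (log2 fold change 1.50). Ifit3 and Ifit3b, and Oas1a and Oas1g, are near-identical pairs, with 97.8% and 97.6% identity over 1700 and 1861 aligned bases of their transcripts, and reads can be split between the copies. In all 6 libraries of 2022 the estimated counts of each pair were fractional while their sum was whole. The summed pairs rose as well, by 3.09 for Ifit3 with Ifit3b and by 5.52 for Oas1a with Oas1g (log2; adjusted p = 2.83e-05 and 2.28e-05).

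The ISG15 system was split. Isg15, the ubiquitin-like modifier, rose from 1.01 ± 0.249 to 23.3 ± 10.8 CPM (log2 fold change 4.52). Usp18, which removes ISG15 and restrains IFNAR2 signalling, was at 0.577, 0.238 and 0.758 CPM in sham and 9.39, 12.8 and 14.8 CPM in TBI mice (log2 fold change 4.55, SE 0.360, adjusted p = 4.55e-05). Herc6, the E3 ligase that attaches ISG15 in mice, was at 13.1, 11.7 and 14.5 CPM in sham and 14.2, 17.7 and 19.5 CPM in TBI mice. Sham 3 lay above TBI 1, and Herc6 alone among the 40 did not pass (log2 fold change 0.38, SE 0.144, adjusted p = 0.0788). Without TBI 1 it passed, with a log2 fold change of 0.50 and an adjusted p of 0.0277.

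All 4 sensors rose. Zbp1, a sensor of Z-form nucleic acid that can trigger necroptosis, had 1, 2 and 4 counts in the sham libraries and 223, 385 and 485 in the TBI libraries (log2 fold change 7.22, SE 0.515, adjusted p = 2.78e-05). Eif2ak2, which encodes the kinase PKR that halts translation on double-stranded RNA, went from 6.53, 5.66 and 5.75 to 21.9, 32.8 and 31.7 CPM (log2 fold change 2.27, SE 0.166). Its sham level was far above that of Zbp1, and its rise was smaller. Ifih1, encoding the RNA sensor MDA5, and Dhx58, encoding its relative LGP2, rose by 1.77 and 3.03 on the log2 scale.

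The antiviral enzymes and GTPases ranged in log2 fold change from 0.38 to 4.99. Mx1 was at 0.333, 0.173 and 0.0421 CPM in sham and 3.54, 7.96 and 6.06 CPM in TBI mice (log2 fold change 4.99, SE 0.546, adjusted p = 0.000261). In C57BL/6 mice the Mx1 gene is known to carry a deletion that leaves no working protein, so that its transcript marks the response and not its function. Rsad2, which encodes viperin, a maker of chain-terminating nucleotides, rose from 0.593 ± 0.227 to 10.4 ± 3.57 CPM (log2 fold change 4.13). Its neighbour Cmpk2, a mitochondrial nucleotide kinase, was already at 34.9, 29.3 and 39.2 CPM in sham mice and reached 40, 48.6 and 46.0 CPM in TBI mice. Sham 3 and TBI 1 nearly met, and the call for Cmpk2 was marginal (log2 fold change 0.38, SE 0.121, adjusted p = 0.0458). The call was lost when sham 1, sham 2, TBI 2 or TBI 3 was left out (adjusted p = 0.123, 0.156, 0.123 and 0.105). Mx2, a relative of Mx1, rose by 2.89, the exonuclease gene Isg20 by 2.49 and Samd9l by 2.03.

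Among the membrane and secreted proteins, Ly6e, a membrane protein that blocks entry of some viruses, rose from 137, 168 and 142 to 296, 261 and 363 CPM (log2 fold change 1.04, SE 0.130, adjusted p = 0.000569). Bst2 (tetherin), which holds budding virions at the cell surface, went from 4.04, 3.26 and 2.74 to 50.6, 80.2 and 112 CPM (log2 fold change 4.60, SE 0.30). Lgals3bp, a secreted glycoprotein, reached 242 ± 63.8 CPM from 12.8 ± 3.04 (log2 fold change 4.24). Ifitm3, which stops the fusion of virus in endosomes, reached 105 ± 37.4 CPM from 8.63 ± 0.605 (log2 fold change 3.60).

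Parp14, an ADP-ribosyltransferase, led its class with 2.09, 2.49 and 1.75 CPM in sham and 16.9, 24.3 and 20.6 CPM in TBI mice (log2 fold change 3.29, SE 0.192, adjusted p = 1.29e-05). Parp9 and its partner, the ubiquitin ligase Dtx3l, rose by 3.06 and 1.82 on the log2 scale, and by 2.40 when their counts were summed. In the remaining group of 10, all rose, by 2.17 (Xaf1, a pro-apoptotic factor) to 5.59. Ifi27l2a, a small mitochondrial or nuclear-envelope protein, was at 1.46, 0.865 and 0.968 CPM in sham and 27.9, 48.5 and 82.4 CPM in TBI mice (SE 0.431, adjusted p = 4.07e-05). Ifi27, its relative and neighbour, was far more abundant in sham mice at 26.4, 22 and 22 CPM and reached 92.1, 123 and 135 CPM (log2 fold change 2.32, SE 0.148). Between these lay Ifi44 (4.60), Trim30a (4.16), Rtp4 (3.84), Phf11d (3.64), Slfn2 (3.23), Slfn5 (3.05) and Ifi35 (2.46), in log2 fold changes.

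The mean log2 CPM over the 40 genes was 0.92, 0.70 and 0.80 in the sham mice and 3.73, 4.31 and 4.59 in the TBI mice. The sham mice thus lay close together, and the TBI mice spread over most of a log2 unit. TBI 1 had the lowest level of the TBI mice for 39 of the 40, and TBI 3 the highest for 34. Over all tested genes these libraries were lowest and highest of their group for 32.4% and 37.7%. In 2022 the mean was 3.70, 4.60 and 4.0 in vehicle A, B and C and 3.83, 3.19 and 3.36 in zileuton A, B and C. Zileuton A lay above vehicle A, so that the groups overlapped.

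**Figure D3:**
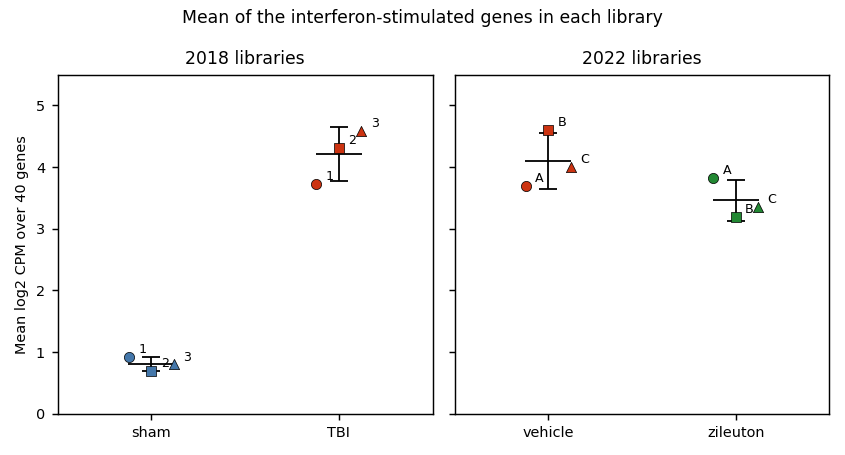
Mean log2 CPM over the 40 genes in each library, with the group mean and SD as bars; each panel is a batch scaled on its own. TBI libraries lie between 3.73 and 4.59 against 0.70 to 0.92 in sham, while the vehicle (3.70 to 4.60) and zileuton (3.19 to 3.83) libraries overlap.

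Markers of myeloid cells differed between the same groups. All 10 markers listed for activated microglia and macrophages rose, and their summed level was 29.6 to 36.1 CPM in sham mice and 1110, 1130 and 2430 CPM in TBI 1, 2 and 3. Spp1 alone made up 604, 656 and 1690 CPM of these, and the other 9 markers summed to 502, 471 and 741 CPM, so that TBI 1 was not the lowest without it. The 8 markers of homeostatic microglia, all of which rose, summed to 233 to 277 CPM in sham mice and to 691, 804 and 1020 CPM in the TBI mice. All 6 monocyte markers rose, with sums of 67.8 to 73.4 CPM against 162 to 203 CPM, nearly all of it Fn1 and Vcan. The other 4 (Ly6c2, Ccr2, Plac8 and Chil3) summed to 0.26 to 0.568 CPM in sham mice and to 8.45, 11.3 and 23.3 CPM in the TBI mice. For neutrophils 5 of 8 markers were testable and all 5 rose (4.26 to 5.18 against 46.8 to 98.3 CPM), although the defining marker Ly6g had 0, 2 and 6 counts in the TBI libraries. Csf3r alone made up 3.74 to 3.95 CPM of the neutrophil sums in sham mice and 30.7, 36.5 and 36.9 CPM in TBI 1, 2 and 3. Plasmacytoid dendritic cells, a main source of interferon alpha, had sums of 37.3 to 40 CPM in sham and 50.3 to 53.2 CPM in TBI mice, and 2 of 5 tested markers rose. One of those is Siglech, which microglia also express. Neuronal markers summed to 8130 to 8750 CPM in sham and 5270 to 6480 CPM in TBI mice, and 4 of 8 fell. Astrocyte markers summed to 4580 to 5200 CPM in sham and 8270 to 8540 CPM in TBI mice (5 of 7 rose), oligodendrocyte markers to 4450 to 5030 and 5320 to 9640 CPM (5 of 6 rose), and endothelial markers to 54.6 to 74.2 and 80.7 to 140 CPM (5 of 6 rose). T and NK cell markers summed to 8.99 to 22.7 CPM in sham and 5.3 to 31.3 CPM in TBI mice (1 of 4 tested rose). B cell markers summed to 27 to 46.5 CPM in sham and 37.6 to 47.2 CPM in TBI mice (1 of 3 tested rose). The part of these marker changes in the interferon-stimulated genes was not tested.

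The interferons themselves were scarcely detected. Of 21 ligand genes, 5 had an entry in the 2018 table, and Ifnb1, Ifnk and Ifnl3 each had 2 counts in a single TBI library, with 0 in the other libraries. All 21 were listed in the 2022 table, where Ifng alone had counts, 2 in vehicle C and 1 in zileuton A. None could be tested at this depth. Of 6 receptor genes 3 rose: Ifnar2 (11.8 ± 0.586 to 24.6 ± 2.21 CPM, log2 fold change 1.06), Ifngr1 (15.9 ± 1.96 to 44.9 ± 5.07 CPM, 1.50) and Il10rb (1.61). Ifnar1 was at 38.2 ± 3.32 CPM in sham and 45.0 ± 2.50 CPM in TBI mice (log2 fold change 0.24, adjusted p = 0.0819).

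Of 12 genes for JAK kinases, STATs and interferon regulatory factors 9 rose and none fell. Irf7, the factor that amplifies interferon alpha production and is itself induced by interferon, went from 0.966 ± 0.0355 to 43.2 ± 17.8 CPM (log2 fold change 5.48, adjusted p = 1.75e-05). Stat2 and Irf9 rose less, by 0.81 and 2.06 on the log2 scale. Jak1 was at 178 ± 8.52 and 172 ± 15.7 CPM (log2 fold change -0.05, adjusted p = 0.694). Of 12 genes that sense nucleic acid or signal upstream of interferon 11 rose, among them Unc93b1, a chaperone of endosomal Toll-like receptors (13.6 ± 0.724 to 105 ± 14.6 CPM), and the kinase gene Tbk1 fell (log2 fold change -0.31, adjusted p = 0.0135). Of 10 negative regulators 9 were tested and 4 rose. In a list of 45 further interferon-stimulated genes, 44 were tested, 36 rose and Nt5c3 fell (log2 fold change -0.35, adjusted p = 0.0264), with a median log2 fold change of 2.43.

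In the comparison of zileuton with vehicle, all 40 genes had a lower fitted level in the zileuton mice, but none passed the adjusted threshold in the main edgeR fit. The median log2 fold change was -0.64 (from -0.10 to -1.31), compared with 0.00 over all tested genes, of which 0% passed an adjusted p of 0.05. The adjusted p was 0.713 for 29 of the 40 and ranged to 0.878. Without adjustment, 23 of the 40 were lower and 0 higher at p under 0.05, against 3.9% and 2.93% of all genes. Every zileuton library lay below every vehicle library for 15 of the 40, and for 7.04% of all genes. With DESeq2, 4 passed the adjusted threshold: Rtp4 (adjusted p = 0.00961), Ifi27l2a (0.0266), Ifit3b (0.0287) and Ifit3 (0.0328). Over all genes, 27 passed it with DESeq2, higher and lower together. The 40 genes are not independent of each other, since the same mice were high or low for most of them.

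The lowest unadjusted p belonged to Rtp4, a chaperone of G protein-coupled receptors with antiviral action, with 14.6, 25.7 and 17.3 CPM in vehicle A, B and C and 10.9, 7.13 and 8.57 CPM in zileuton A, B and C (log2 fold change -1.12, SE 0.235). Samd9l, a restriction factor of poxviruses, was at 8.47, 9.46 and 7.92 CPM in vehicle and 6.08, 4.81 and 5.30 CPM in zileuton mice (-0.68, SE 0.147). Ifi27l2a was at 17.1, 32.9 and 26.1 against 15.9, 9.90 and 8.99 CPM (-1.13, SE 0.279). In these 3 genes no zileuton mouse reached the lowest vehicle mouse, although zileuton A came within 10% of vehicle A for Ifi27l2a.

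Of the IFIT genes, 3 of 4 had groups that did not overlap. Ifit3 was at 77.6, 145 and 80.6 CPM in vehicle and 62.0, 43.9 and 52.9 CPM in zileuton mice (-0.94, SE 0.244). Ifit3b was at 30.9, 47.8 and 30.3 against 22.7, 16.7 and 21.4 CPM (-0.84, SE 0.197). Ifit1 was at 20.5, 38.4 and 22.5 against 17.0, 12.4 and 15.6 CPM (-0.86, SE 0.241). Vehicle B was the highest of the 6 mice and zileuton B the lowest in all 3. The sum of Ifit3 and Ifit3b differed by -0.91. Ifit2 had a log2 fold change of -0.47, short of an unadjusted p of 0.05.

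The OAS genes had the largest median difference of the 8 role classes (-1.03), with wide errors. Oas3 was at 1.92, 6.98 and 3.17 CPM in vehicle and 2.86, 0.974 and 1.05 CPM in zileuton mice (-1.31, SE 0.559). Oas2 was at 2.95, 5.46 and 3.14 against 2.99, 0.911 and 1.46 CPM (-1.11, SE 0.435). Oas1g was at 1.47, 5.55 and 3.35 against 1.87, 1.35 and 1.46 CPM (-1.15, SE 0.436). In these 3 genes zileuton A lay above vehicle A, and vehicle B was far above every other mouse. Oasl2 was at 38.4, 82.1 and 42.9 against 36.6, 21.1 and 26.8 CPM, with no overlap (-0.95, SE 0.306). The sum of Oas1a and Oas1g differed by -0.80.

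Isg15 was at 14, 29.4 and 15.6 CPM in vehicle and 13.6, 7.89 and 11.5 CPM in zileuton mice (-0.84, SE 0.305). Herc6 was at 16.8, 23.0 and 16.9 against 16.1, 12.3 and 14.2 CPM (-0.42, SE 0.159). Eif2ak2 was at 27.8, 36.3 and 31.0 against 26.3, 21.0 and 20.3 CPM (-0.49, SE 0.138). Each of these groups was apart, with zileuton A just under vehicle A. The sensors Zbp1, Dhx58 and Ifih1 had log2 fold changes of -0.82, -0.64 and -0.37 and did not reach an unadjusted p of 0.05.

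All 4 membrane and secreted genes had p under 0.05, but none had separate groups. Bst2 was at 37.9, 70.3 and 56.4 CPM in vehicle and 38.9, 26.9 and 23.5 CPM in zileuton mice (-0.88, SE 0.247). Ifitm3 was at 58.3, 82.4 and 72.4 against 58.6, 32.5 and 35.2 CPM (-0.76, SE 0.225). Zileuton A lay just above vehicle A in both, whereas zileuton B and C lay below all vehicle mice. Lgals3bp was at 197, 306 and 277 against 228, 155 and 145 CPM (-0.56, SE 0.208). Ly6e was at 281, 328 and 330 against 292, 223 and 242 CPM, the smallest difference among the 23 (-0.31, SE 0.118).

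Ifi27 was at 55.6, 55.0 and 58.6 CPM in vehicle and 50.3, 36.9 and 34.7 CPM in zileuton mice (-0.47, SE 0.135), and here vehicle B was not raised. Ifi44 was at 4.63, 7.89 and 5.53 against 4.11, 2.17 and 3.49 CPM (-0.89, SE 0.285). Xaf1 was at 13.1, 24.2 and 16.0 against 12.6, 10.2 and 11.2 CPM (-0.65, SE 0.216). These 3 genes had separate groups. Ifi35 (7.41, 10.0 and 9.16 against 7.40, 4.65 and 5.12 CPM) and Phf11d (3.77, 6.72 and 3.92 against 3.68, 1.76 and 3.07 CPM) were apart by a narrow margin. Parp9 overlapped at zileuton A and vehicle A, with 14.7, 22.6 and 17.8 against 14.7, 10.8 and 10.0 CPM (-0.63, SE 0.196). The remaining 17 genes had an unadjusted p of 0.05 or more, with Mx1 (-0.29, SE 0.405) and Cmpk2 (-0.10, SE 0.101) among the smallest differences. Log2 fold changes were -0.80 for Usp18, -0.74 for Oas1a, -0.62 for Oasl1, -0.64 for Rsad2, -0.61 for Slfn5, -0.60 for Slfn2, -0.56 for Trim30a and -0.51 for Isg20. They were -0.37 for Mx2, -0.29 for Parp14 and -0.20 for Dtx3l.

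**Figure D4:**
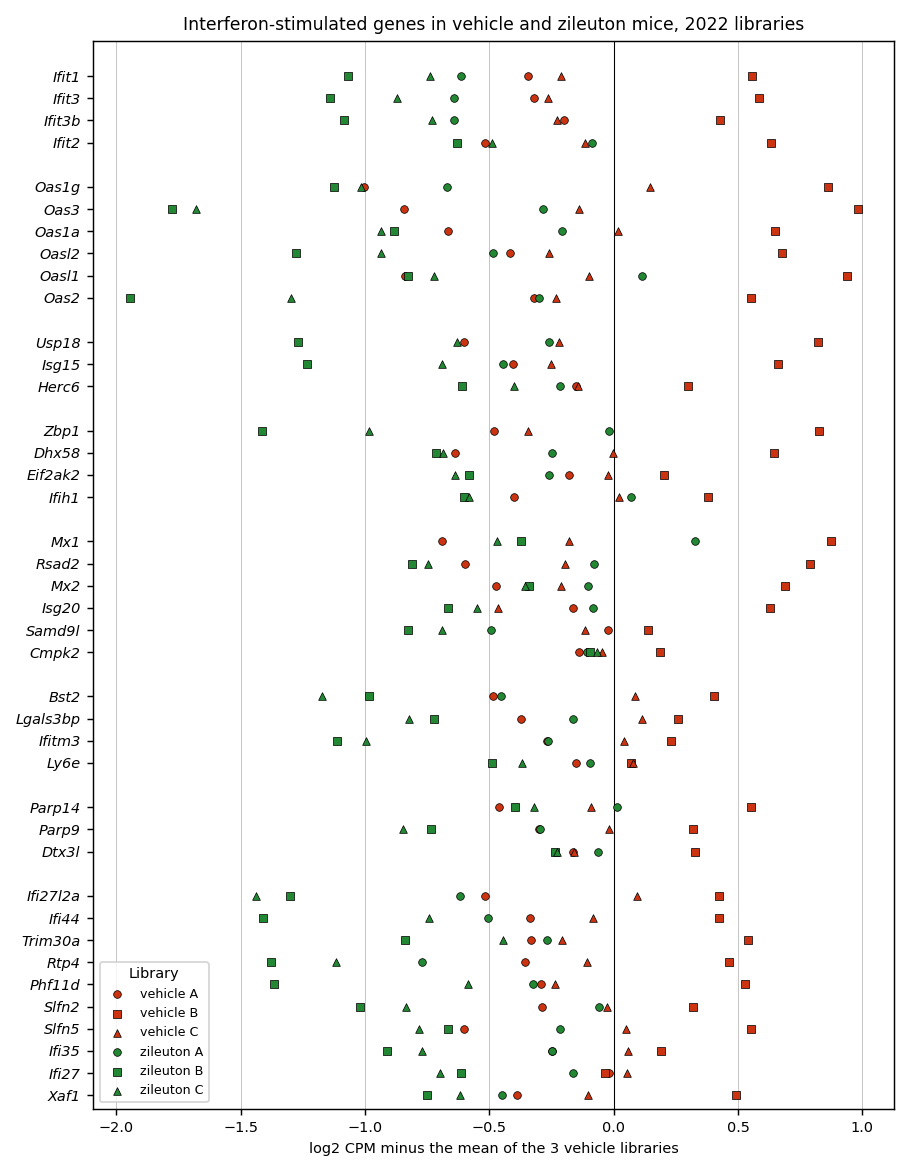
Level of each gene in every 2022 library, as log2 CPM minus the mean of the 3 vehicle libraries, with circles, squares and triangles for A, B and C. The red square, vehicle B, lies furthest right in 38 of 40 rows, and the green circle, zileuton A, is the highest zileuton symbol in 39.

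Vehicle B stood apart from the other vehicle mice. It was the highest of all 6 mice for 38 of the 40 genes, as it was for 12.2% of all tested genes, and it stood at a median of 1.74 times the mean of vehicle A and C over the 40 (0.962 to 2.74), where the median of all genes was 1.01. It was at least 1.5-fold above that mean for 26 of the 40 and for 4.77% of all genes, and at least 1.5-fold above each of vehicle A and C for 22 of the 40. Vehicle A was the lowest of the vehicle mice for 36 of the 40 and for 36.4% of all genes. Without vehicle B the median log2 fold change was -0.40, 35 of the 40 remained below 0, and 12 were lower with an unadjusted p under 0.05 (3.98% of all genes). Those 12 were Ifit1, Ifit3, Ifit3b, Oasl2, Eif2ak2, Samd9l, Bst2, Ifitm3, Ifi27, Ifi27l2a, Xaf1 and Rtp4. Oasl1 (0.01), Mx1 (0.29), Mx2 (0.08), Cmpk2 (0.00) and Parp14 (0.04) were then at or above 0, and the difference for Oas3 shrank to -0.64. Within the zileuton group, zileuton A was the highest mouse for 39 of the 40 and for 36.7% of all genes. Leaving out zileuton B or zileuton C lowered the number with p under 0.05 from 23 to 12 or 15. Leaving out vehicle C lowered it to 20, whereas leaving out zileuton A or vehicle A raised it to 32 or 34.

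**Figure D5:**
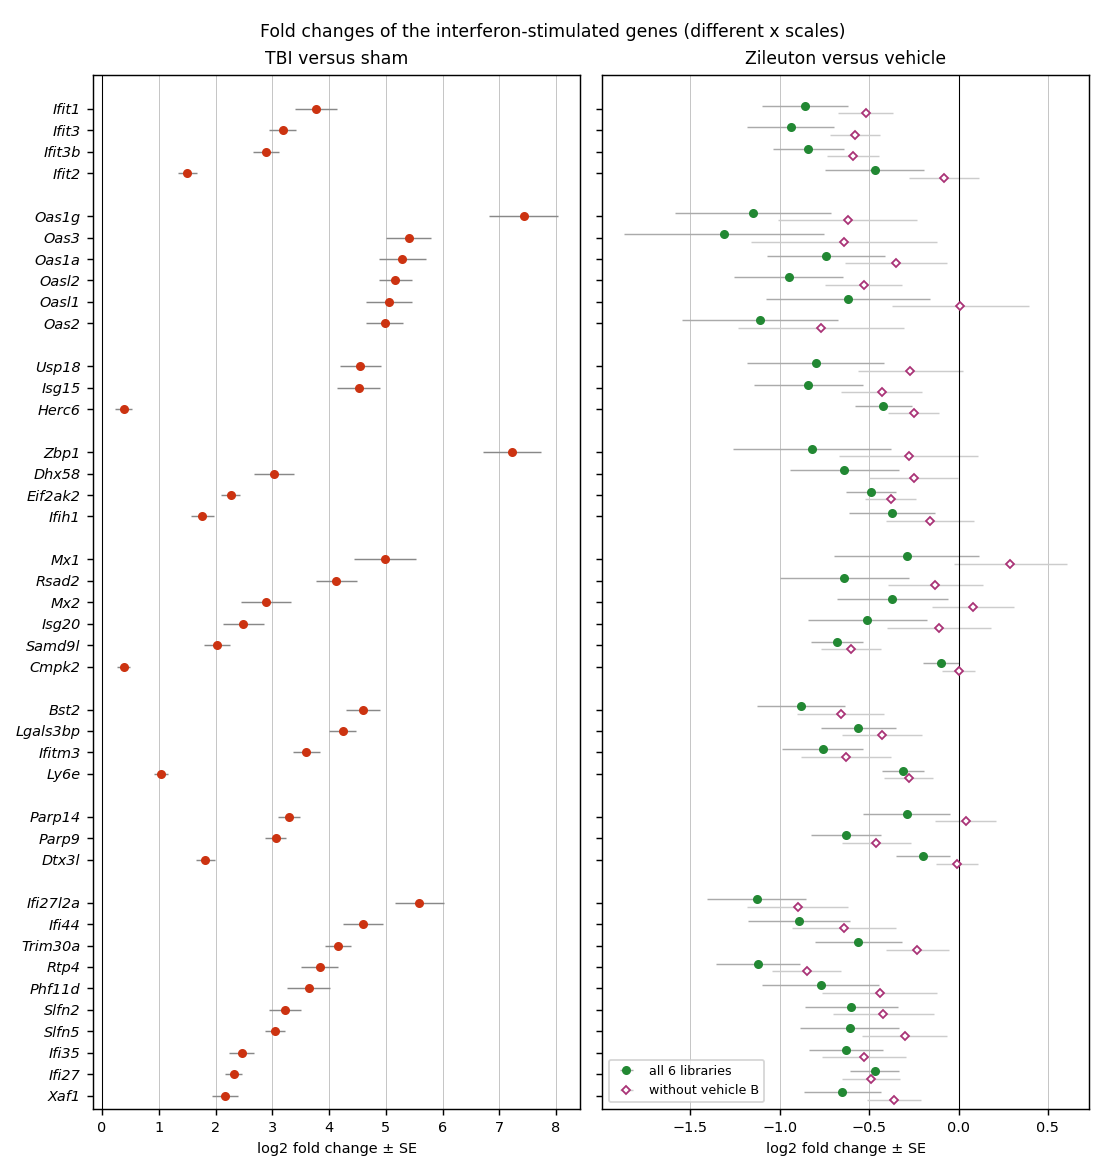
Log2 fold change with its SE for each gene, TBI versus sham at left and zileuton versus vehicle at right, where filled circles use all 6 libraries and open diamonds leave out vehicle B; the x scales differ. All left-hand points lie above 0 (0.38 to 7.43), all filled circles below 0 (-0.10 to -1.31), and 5 of the diamonds at or above 0.

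Genes that rose more after TBI in 2018 tended to have the lower zileuton value in 2022, with a Spearman rho of -0.66 across the 40 genes, and to stand higher in vehicle B relative to vehicle A and C (rho 0.62). The order of levels in TBI mice of 2018 (FPKM) and vehicle mice of 2022 (TPM) was alike, with a rho of 0.91. These are descriptions across genes that share their libraries, and genes are not independent replicates. Cmpk2, Herc6 and Ly6e, with the 3 smallest rises after TBI, had zileuton values of -0.10, -0.42 and -0.31.

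Myeloid markers differed between the 2022 mice as well. The markers of activated microglia and macrophages summed to 1240, 1910 and 2640 CPM in vehicle A, B and C and to 1500, 972 and 833 CPM in zileuton A, B and C, and all 10 had a log2 fold change below 0 (2 with an unadjusted p under 0.05). Vehicle C had the highest sum here and vehicle B the second, whereas vehicle B led the interferon-stimulated genes. Spp1 made up 785, 982 and 1570 CPM of the vehicle sums and 733, 345 and 370 CPM of the zileuton sums. The other 9 markers summed to 459, 927 and 1080 CPM and to 766, 627 and 463 CPM, so that without Spp1 vehicle A was the lowest of the 6 mice. Homeostatic microglial markers summed to 872, 1170 and 1260 CPM and to 1210, 978 and 877 CPM, and monocyte markers to 242, 221 and 226 CPM and to 365, 186 and 167 CPM. Without Fn1 and Vcan, which made up 357 CPM in zileuton A, the other 4 monocyte markers summed to 7.82, 11.0 and 10.1 CPM in vehicle and 8.09, 3.36 and 3.52 CPM in zileuton mice. Their log2 fold changes were -1.59 for Chil3, -1.20 for Plac8, -1.11 for Ly6c2 and -0.32 for Ccr2. Of these, Chil3 and Ly6c2 had an unadjusted p under 0.05. The other 2 of the 6 monocyte markers, Fn1 and Vcan, had log2 fold changes above 0. Other cell type lists varied between these mice too. Oligodendrocyte markers summed to 3690, 6540 and 8260 CPM in vehicle and to 7660, 7720 and 7430 CPM in zileuton mice. Neutrophil markers summed to 23.3, 37.6 and 40 against 46.2, 29.8 and 28.1 CPM. B cell markers summed to 46.7, 59.5 and 59.3 against 62.9, 50.7 and 45.5 CPM. T and NK cell markers summed to 19.9, 32.4 and 29.5 against 26, 44.5 and 41.1 CPM. The part of these markers in the lower interferon-stimulated genes was not tested.

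Along the pathway, Irf7 was at 44.8 ± 18.3 CPM in vehicle and 24.5 ± 6.64 CPM in zileuton mice (log2 fold change -0.87, SE 0.293) and Irf9 at 35.8 ± 5.83 and 25.3 ± 4.49 CPM (-0.50, SE 0.160), both with an unadjusted p under 0.05 and an adjusted p of 0.713. The other 10 genes of the JAK, STAT and interferon regulatory factor list had an unadjusted p of 0.05 or more. Ifnar1 and Ifnar2 had log2 fold changes of 0.12 (SE 0.0857) and -0.28 (SE 0.158). Of the 45 further interferon-stimulated genes 43 were tested, 38 had a log2 fold change below 0, and 9 were lower at an unadjusted p under 0.05, with a median of -0.38. The lowest p among them belonged to Trim12a (-0.66).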

How the data were processed

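Brain RNA was sequenced from 12 mice, 3 per group. The deposited tables of 2018 hold raw counts per gene and FPKM values, which the authors computed as counts over the library total and gene length. The deposited tables of 2022 hold estimated counts, of which 32.2% were not whole and which were rounded here, and TPM values scaled by the authors. Even numbers made up 62.3 to 64.4% of the 2018 counts from 1 to 20. The submitters' processing notes name HISAT2, featureCounts, Subread, DESeq2 and GRCm39 with no role, and 223 identifiers in the 2022 table begin with MSTRG; versions and strand are not given in the sources used here. 0 value columns were left unused.

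Each batch was fitted on its own with edgeR 4.0.16 (R 4.3.3), TMM scaling, edgeR's filter by expression and the quasi-likelihood test, and calls were made at a Benjamini-Hochberg adjusted p of 0.05. The design assumed whole counts in 2022 and was kept for the rounded estimates. Fits with limma 3.58.1 and DESeq2 1.42.0, other scalings and filters, a two-sided equal-variance two-sample test, a replicate block and fits without each library were alternatives. The scripts were checked on simulated counts with known changes. Promoters came from RefSeq (GRCm38.p6), and positions and transcripts from GENCODE M21, with Biopython 1.88 for alignment. Of the 32 promoters, 28 had their bases after the start in an annotated transcript of the gene.

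The members and lists were chosen with earlier results of these data known. Values in every library are given for, in each of 8 role classes, the gene with the highest mean CPM and the gene with the largest log2 fold change in TBI versus sham, for all with an unadjusted p under 0.05 in zileuton versus vehicle, for Oas1g, Oas2 and Oas3, and for any not called after TBI. Of the pathway lists, counts are given with a few of the most abundant genes and the ligands with a count; Irf7, Irf9, Il10rb, Trim12a, Tbk1 and Nt5c3 were named after their values were seen. Groups shared the numbers 1 to 3 or, in 2022, column numbers, but same-numbered libraries did not deviate together, so no pairing was used. Not every gene of the pathway lists is reported here.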

Additional observations from a re-analysis of the deposited data

How the results depend on the processing

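Across all alternatives 723 of 751 values for single genes in TBI versus sham kept their direction and side of the threshold, 27 lost the call and 1 gained it. In zileuton versus vehicle 710 of 720 did, 5 gained a call, and 5 changed sign, all without vehicle B. Over the fits that leave out 1 library, these 5 ranged from -0.99 to 0.01 (Oasl1), -0.59 to 0.29 (Mx1), -0.59 to 0.08 (Mx2), -0.16 to 0.00 (Cmpk2) and -0.49 to 0.04 (Parp14), the upper value being the one without vehicle B. After TBI the mean difference of the 40 genes was 3.40 on log2 CPM and 1.92 on log2(FPKM + 1), and the median fold change was 1.59 with limma on log2(FPKM + 1) and 1.58 with no filter, a scale that understates low genes. The number called higher was 20 with the equal-variance test on FPKM and 38 to 40 when each library was left out in turn. Calls over all genes, higher and lower together, were fewer in these fits as well. They were 5479 in the main fit, 2625 with the equal-variance test and 3848 to 4956 with a library left out. With zileuton, 4 genes passed the adjusted threshold with DESeq2 and 1 (Rtp4) with edgeR and no filter on low counts. Over all genes, 27 and 4 passed in these fits. The number lower at an unadjusted p under 0.05 was 23, against 14, 15 and 12 with limma on log2(TPM + 1), log2(TPM + 0.1) and with no filter, and 2 with the equal-variance test. It was 12 to 34 when each library was left out, with 1 sample fewer in every such fit. It was 12 without vehicle B or zileuton B, 15 without zileuton C and 20 without vehicle C. Without zileuton A it was 32, and without vehicle A it was 34. The cause of these differences was not tested. The longer ISRE motif left 8 genes in place of 14.

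Same-numbered sham and TBI libraries had deviation correlations of -0.02, -0.09 and -0.03, and vehicle and zileuton columns -0.28, 0.06 and -0.28, so the numbers were not taken as pairs. With the replicate block 38 genes were called higher after TBI, and 15 were lower at an unadjusted p under 0.05 with zileuton. Summing near-identical or overlapping pairs, an alternative chosen after seeing the data, changed no call; the marker sums without their most abundant genes and the halved Oas1g counts were also chosen after seeing the data. Identity between proteins was not run. With 3 mice a group, an exact permutation test of a single gene cannot reach the threshold.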
